A study of Mus musculus with 2 samples.

Results

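Among 18029 mouse bone marrow cells in the LSK gate (lineage-negative, Sca1-positive, Kit-high stem and progenitor cells) that passed quality control, 120 cells (0.666%) were taken as mast and basophil progenitors. A cell was chosen when at least 3 of 6 genes had 1 or more unique molecular identifiers (UMIs, each standing for 1 captured transcript). The 6 genes were Prss34, Ms4a2, Fcer1a, Cma1, Gzmb and Csrp3. The cells came from young wild-type mice (WT) and from young mice described as lacking IκB, named IkBKO in the deposited cell table. The lost IκB genes, the cells that lack them and the number of mice per pool are not named in the labels. Marrow of the femur and tibia had been depleted of lineage-positive cells and flow-sorted for LSK cells. In each of 2 replicates both genotypes were tagged with hashing antibodies and run as 1 droplet library, so the data hold 4 pools of cells, 2 for each genotype. No other treatment is named, and the tests below measure only the spread between pools, which may be technical.

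Mast cells and basophils are granulocytes that bind immunoglobulin E through the high-affinity receptor FcεRI and release histamine and proteases. Mast cells leave the marrow as progenitors and mature in tissues, whereas basophils finish their maturation in the marrow. Both lineages depend on the transcription factor GATA2, and in basophils it acts with C/EBPα. IκB proteins hold NF-κB dimers inactive in the cytoplasm. Fcer1a and Ms4a2 encode the α and β chains of FcεRI, Csrp3 encodes a LIM-domain protein best known from muscle, Cma1 encodes a mast cell chymase and Gzmb encodes granzyme B. Prss34 encodes mMCP-11, a protease of basophils.

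The promoters of 4 of these genes are shown because Gata2 was among the genes most widely detected in the chosen cells. Each line gives the 250 bases before the RefSeq transcript start on the gene's own strand (GRCm38.p6). Ms4a2 is at chr19:11623720-11623969 on the minus strand, Cpa3 (mast cell carboxypeptidase A) at chr3:20242182-20242431 on the minus strand, Cma1 at chr14:55944676-55944925 on the minus strand and Prss34 at chr17:25298144-25298393 on the plus strand. Capitals mark GATAA or its reverse complement TTATC, the letters of a GATA motif.
Ms4a2: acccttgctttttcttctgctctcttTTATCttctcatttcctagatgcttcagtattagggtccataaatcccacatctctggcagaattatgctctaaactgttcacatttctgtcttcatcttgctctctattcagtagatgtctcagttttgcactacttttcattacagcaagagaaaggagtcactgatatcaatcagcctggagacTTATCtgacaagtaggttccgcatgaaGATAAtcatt
Cpa3: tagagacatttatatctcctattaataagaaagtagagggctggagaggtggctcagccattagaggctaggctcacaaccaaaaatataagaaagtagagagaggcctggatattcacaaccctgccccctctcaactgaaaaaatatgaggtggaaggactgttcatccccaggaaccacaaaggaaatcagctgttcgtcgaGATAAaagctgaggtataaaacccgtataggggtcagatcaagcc
Cma1: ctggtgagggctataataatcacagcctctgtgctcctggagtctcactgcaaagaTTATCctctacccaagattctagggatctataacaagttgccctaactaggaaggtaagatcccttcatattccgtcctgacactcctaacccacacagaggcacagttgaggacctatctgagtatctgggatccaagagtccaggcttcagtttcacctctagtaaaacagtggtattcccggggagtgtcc
Prss34: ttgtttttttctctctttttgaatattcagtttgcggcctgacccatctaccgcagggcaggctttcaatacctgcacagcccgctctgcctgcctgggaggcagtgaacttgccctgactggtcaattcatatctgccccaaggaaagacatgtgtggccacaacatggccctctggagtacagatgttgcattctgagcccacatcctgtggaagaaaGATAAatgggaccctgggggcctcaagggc
Ms4a2 held 3 matches, whose first bases lay 224, 37 and 10 bases before the start, and the single matches of Cpa3, Cma1 and Prss34 lay 45, 194 and 30 bases before it. Of 8 genes searched (the 6 genes of the rule, Cpa3 and Mcpt8), 5 held a match, Fcer1a being the fifth. The same letters occurred in 7418 of 32851 RefSeq promoters of this length (22.6%). A match describes the letters and does not show that a factor binds.

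The 8 genes lie on 6 chromosomes (GENCODE M21, GRCm38), but the proteases cluster. Cma1 (chr14:55941451-55944675), Mcpt8 (chr14:56082166-56085273) and Gzmb (chr14:56258838-56262260) belong to a run of 16 annotated genes at chr14:55941451-56262260 that also holds Ctsg. In the chosen cells 8 of these 16 genes had any UMI. Mcpt8 had 2408 UMIs, Ctsg 1493, Gzmb 975 and Cma1 964, against 50 UMIs of Mcpt2, 12 of Cma2 and 1 each of Mcpt4 and Gzmc. Prss34 (chr17:25298394-25300165) opens a second run of 4 protease genes, taken here only as far as Tpsab1. There it had 2423 UMIs and its neighbour Prss28 had 2. On chromosome 14, Mcpt4 and Mcpt2, which mark mature connective tissue and mucosal mast cells, were scarce, whereas the mast cell chymase gene Cma1 was seen in 33 cells. The tryptase gene Tpsb2, which lies past Tpsab1 on chromosome 17, was seen in 3 cells, with 61 UMIs in 2 of them and 62 in the other.

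To ask whether the cells were as frequent in both genotypes, their share of passing LSK cells was computed in each pool. In replicate 1 they were 14 of 3721 WT cells (0.376%, exact 95% binomial interval 0.206 to 0.630%) and 63 of 3962 IkBKO cells (1.59%, 1.22 to 2.03%). In replicate 2 they were 6 of 4963 WT cells (0.121%, 0.0444 to 0.263%) and 37 of 5383 IkBKO cells (0.687%, 0.484 to 0.946%). Both IkBKO pools lay above both WT pools, and the share was 4.23 times as high in IkBKO as in WT in replicate 1 (95% interval 2.34 to 8.17) and 5.69 times in replicate 2 (2.38 to 16.5). These intervals cover counting error only, and 2 pools against 2 cannot go below an exact two-sided permutation p of 0.33. The shares are shares of the LSK gate, which selects on Kit and Sca1, and say nothing of the cells outside it.

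**Figure D1:**
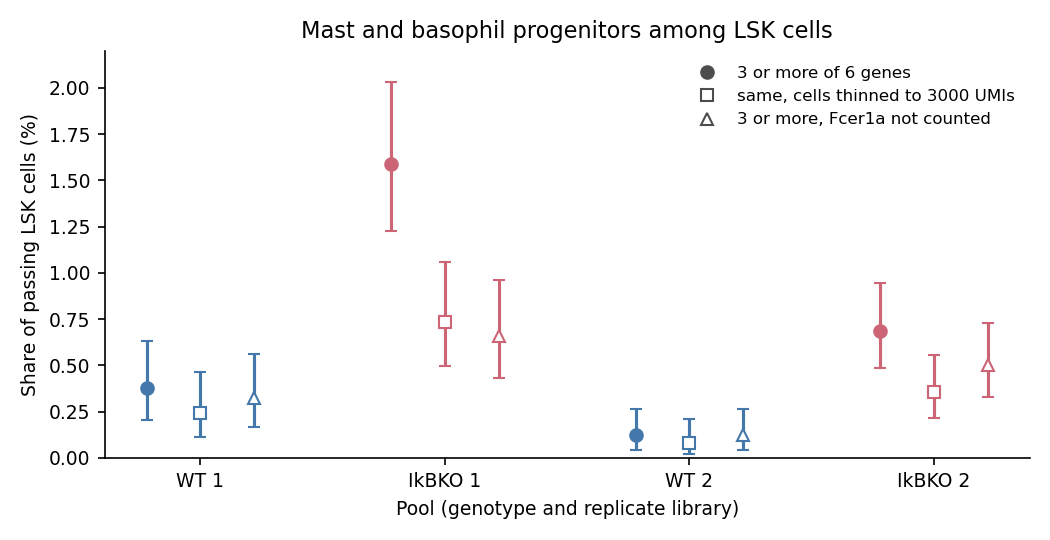
Share of passing LSK cells that met the rule in each pool (y axis, percent), with exact 95% binomial intervals. WT pools sat at 0.376% and 0.121% and IkBKO pools at 1.59% and 0.687%. A second symbol for each pool gives the share after thinning every cell to 3000 UMIs.

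The share depends on depth and on the genes counted. Median UMIs in all other passing cells were 9955 in WT and 13732 in IkBKO in replicate 1, and 6983 and 9645.5 in replicate 2. After every cell was thinned to 3000 UMIs, leaving out 33, 24, 111 and 75 shallower cells, the shares were 0.244% in WT and 0.736% in IkBKO in replicate 1 (ratio 3.02, 1.39 to 7.25). In replicate 2 they were 0.0824% and 0.358% (ratio 4.34, 1.44 to 17.5). Thinning to 5000 UMIs gave ratios of 2.52 and 4.38. The choice of genes mattered more in replicate 1. When Fcer1a was not counted, 12 WT cells (0.322%) and 26 IkBKO cells (0.656%) remained there, a ratio of 2.03 with an interval that includes 1 (0.991 to 4.43). Replicate 2 kept 6 WT cells (0.121%) and 27 IkBKO cells (0.502%), a ratio of 4.15 (1.68 to 12.3). Requiring 2 or more granule proteases at 5 or more UMIs each gave ratios of 1.95 (0.972 to 4.12) and 4.46. Among the cells outside the rule, which include cells with 1 or 2 of its genes, Fcer1a was detected more widely in IkBKO. The cause was not tested. Fcer1a had a UMI in 2 of 3707 WT cells (0.0540%) and 50 of 3899 IkBKO cells (1.28%) in replicate 1, and in 2 of 4957 (0.0403%) and 18 of 5346 (0.337%) in replicate 2. In cells outside the rule with UMIs of Elane, Mpo and Prtn3, Fcer1a had a UMI in 0 of 597 WT cells (exact upper bound 0.616%) and 9 of 1738 IkBKO cells (0.518%, below that bound). The median depth of those cells was 17447 and 22942 UMIs in WT and IkBKO of replicate 1 and 14978.5 and 19749 in replicate 2.

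The 6 genes of the rule were not detected evenly. Because they chose the cells, their values are a description without a test. Ms4a2 had a UMI in all 14 and all 6 chosen WT cells and in 59 of 63 and 35 of 37 IkBKO cells, with levels of 524 and 634 CPM in WT. CPM are counts-per-million values, from UMIs summed over the cells of a pool. The IkBKO levels of Ms4a2 were 394 and 459 CPM. Csrp3 was found in 13 of 14, 59 of 63, 5 of 6 and 27 of 37 cells (WT and IkBKO of replicate 1, then WT and IkBKO of replicate 2; the same order is used below). Ms4a2 was near-universal in every pool, whereas Csrp3 was missed in more cells of the last pool than of the others. At least 1 UMI of Ms4a2 was present in 114 of the 120 cells and of Csrp3 in 104, against 0.949% and 2.45% of all other passing cells.

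Fcer1a and the proteases separated the pools. Fcer1a had a UMI in 7 of 14 WT and 56 of 63 IkBKO cells in replicate 1, and in 0 of 6 WT and 30 of 37 IkBKO cells in replicate 2. Its level was 127, 383, 0 and 253 CPM, and 0 of 6 cells allows a share of up to 45.9% (exact 95% interval). Prss34 showed the opposite order, with a UMI in 10 of 14 WT cells (71.4%) against 8 of 63 IkBKO cells (12.7%) and in 4 of 6 (66.7%) against 7 of 37 (18.9%). Its level of 4525, 686, 6918 and 2026 CPM rested on few cells, since 1 cell held 46.3%, 58.6%, 90.3% and 38.4% of the Prss34 UMIs of its pool. Gzmb had a UMI in 3 of 14, 23 of 63, 3 of 6 and 24 of 37 cells, at 143, 560, 456 and 1386 CPM. Cma1 had a UMI in 1 of 14, 11 of 63, 3 of 6 and 18 of 37 cells, and its 701 CPM in WT of replicate 1 came from 1 cell with 127 UMIs. Within each replicate Fcer1a and Gzmb were higher and Prss34 lower in IkBKO, while Cma1 went in opposite directions in the 2 libraries by CPM.

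**Figure D2:**
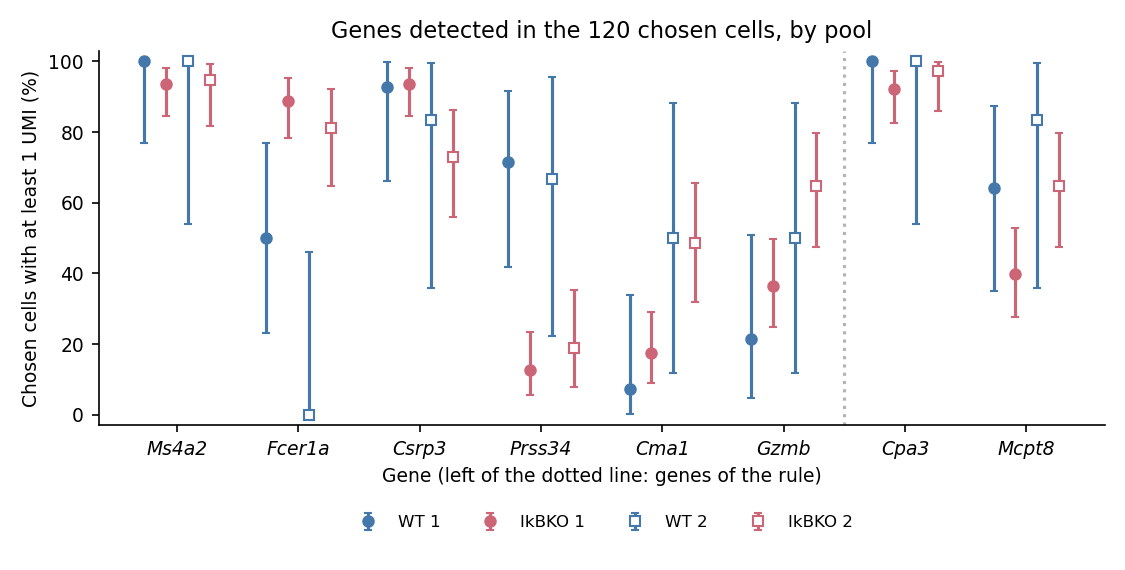
Share of the chosen cells with at least 1 UMI of each gene (y axis, percent) in each pool, with exact 95% binomial intervals; genes of the rule stand left of the dotted line. Ms4a2 was seen in 93.7% or more of the cells of every pool, whereas Prss34 was seen in 71.4% and 66.7% of WT cells and in 12.7% and 18.9% of IkBKO cells.

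Most chosen cells were close to the limit of the rule. Exactly 3 of the 6 genes were present in 72 cells, 4 in 30, 5 in 18 and all 6 in none, and a further 106 cells with exactly 2 of the genes were left out. The commonest combination was Ms4a2, Fcer1a and Csrp3 without a protease, in 40 cells, of which 32 were IkBKO cells of replicate 1 and 2 were WT. The next were all genes but Prss34 (16 cells, none WT) and Prss34 with Ms4a2, Fcer1a and Csrp3 (15 cells, 4 of them WT). Just inside the limit Cpa3, which the rule did not use, had a UMI in 66 of the 72 cells with 3 genes (91.7%) at 824 CPM. Just outside it, Cpa3 had a UMI in 76 of the 106 cells with 2 genes (71.7%) at 383 CPM, against 9.06% of all passing cells outside the rule. Mcpt8 fell away faster, from 29.2% of the cells with 3 genes to 16.0% of those with 2.

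Cpa3 and Mcpt8 were used to describe the mast and basophil sides. Cpa3 is abundant in mast cells and their progenitors, and Mcpt8 encodes a basophil protease. Cpa3 was present in nearly every chosen cell (14 of 14, 58 of 63, 6 of 6 and 36 of 37) at 910, 1348, 3370 and 2966 CPM, against 15.7 to 27.2 CPM in other LSK cells. Mcpt8 was present in 9 of 14, 25 of 63, 5 of 6 and 24 of 37 cells at 1517, 1338, 4718 and 2436 CPM, against 3.02 to 30.0 CPM outside. Both genes were present in 63 cells, Cpa3 alone in 51, neither in 6 and Mcpt8 alone in none. By UMIs 95 cells held more Cpa3, 17 held more Mcpt8 and 8 held as many of both, with 29 cells within 2 UMIs of equality. The division is a description, and whether it cuts a range or separates types was not tested. Mcpt8-leaning cells were 4 of 14 in WT (28.6%, 8.39 to 58.1%) and 5 of 63 in IkBKO (7.94%, 2.63 to 17.6%) in replicate 1, and 1 of 6 (16.7%, 0.421 to 64.1%) and 7 of 37 (18.9%, 7.96 to 35.2%) in replicate 2. The order of the genotypes was not the same in the 2 libraries, and the intervals overlapped within each. With 4 or more genes required, the shares were 40% of 5 WT cells and 25% of 20 IkBKO cells in replicate 1, and 33.3% of 3 WT cells and 25% of 20 IkBKO cells in replicate 2. At that setting WT lay above IkBKO in both libraries.

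**Figure D3:**
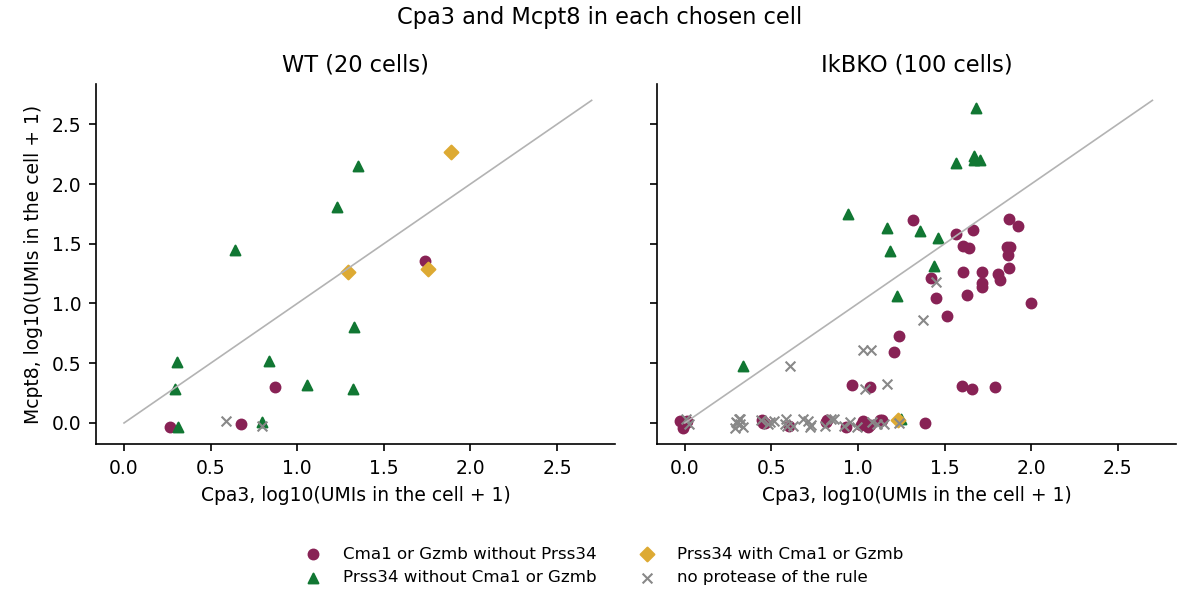
Cpa3 (x axis) against Mcpt8 (y axis) in each chosen cell, both as log10(UMIs + 1), for WT (20 cells) and IkBKO (100 cells), with symbols for which proteases of the rule the cell held. Of the 25 cells with Prss34 and neither Cma1 nor Gzmb, 15 lay above the diagonal of equal counts, and 45 of the 51 cells with Cma1 or Gzmb and no Prss34 lay below it.

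The chosen cells were also grouped by which proteases of the rule they held. This grouping and the genes compared across it were chosen after the values were seen and are reported without a test. Cma1 or Gzmb without Prss34 was found in 51 cells (2, 23, 2 and 24 by pool), Prss34 without Cma1 or Gzmb in 25 (9, 8, 2 and 6), both in 4 (1, 0, 2 and 1) and none of the 3 proteases in 40 (2, 32, 0 and 6). As a share of LSK cells the Cma1 or Gzmb group was 10.8 times as high in IkBKO as in WT in replicate 1 (2.67 to 94.5) and 11.1 times in replicate 2 (2.75 to 96.6), each against 2 WT cells. The group without protease had a ratio of 15.03 in replicate 1 (3.83 to 129), also against 2 WT cells, and 6 IkBKO cells against 0 WT cells in replicate 2. Under the rule its cells must hold Ms4a2, Fcer1a and Csrp3 together, so the group is empty when Fcer1a is not counted. With 2 or more genes required its ratios were 5.34 and 3.92. After thinning to 5000 UMIs its ratio was 6.86 in replicate 1, with 2 IkBKO cells against 0 WT cells in replicate 2. The ratios of the Prss34 group were 0.835 (0.280 to 2.44) and 2.77 (0.495 to 28.0). With 2 or more genes required, the ratios of the Cma1 or Gzmb group were 3.29 and 6.45. After thinning to 5000 UMIs they were 4.58 (0.975 to 43.0, an interval that includes 1) and 7.39 (1.02 to 324). With 4 or more genes required, the Prss34 ratio in replicate 1 was 1.64 in place of 0.835.

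The groups carried different granule and receptor genes. In the Cma1 or Gzmb group, the Prss34 group and the group without protease, Cpa3 stood at 3582, 1435 and 446 CPM and Mcpt8 at 1306, 4689 and 56.7 CPM. Kit, the stem cell factor receptor that mast cells retain, stood at 599, 115 and 148 CPM, and Il1rl1, the interleukin-33 receptor, at 444, 47.2 and 53.0 CPM. The integrin gene Itgb7, used by mast cell progenitors to enter the gut, followed the same order at 204, 44.2 and 56.7 CPM. The mast cell factor Mitf had a UMI in 19 of 51, 1 of 25 and 2 of 40 cells. Cebpa went the other way, with a UMI in 11 of 51, 19 of 25 and 18 of 40 cells and 44.6, 153 and 78.6 CPM. Hdc, the enzyme that makes histamine, stood at 103, 312 and 179 CPM. Myeloperoxidase (Mpo), a neutrophil granule enzyme, had a UMI in 13 of 51, 23 of 25 and 28 of 40 cells. In these pooled sums the cells with Cma1 or Gzmb held more Kit, Il1rl1, Itgb7 and Mitf, and the cells with Prss34 more Mcpt8, Cebpa, Hdc and Mpo. The genotype makeup differed, with 47 of 51 and 14 of 25 cells from IkBKO. Their depth differed too, with a median of 6320 UMIs in the Cma1 or Gzmb group, 15279 in the Prss34 group and 12926.5 in the group without protease, and the part of genotype and depth in these levels was not tested.

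Genes outside the rule that were most concentrated in the chosen cells were ranked by their lowest ratio of chosen to other LSK cells over the 4 pools, again as a description. The first was Cdh1 (E-cadherin) at 38.6, 23.9, 159 and 33.0 CPM against 0.0712 to 0.312 CPM outside, a ratio of at least 106 in every pool. Alox5, which starts leukotriene synthesis, reached 110, 65.0, 178 and 129 CPM against 0.322 to 1.31 CPM. Il1rl1 reached 93.8, 143, 119 and 305 CPM against 0.570 to 3.08 CPM. The other genes in the first 15 were Rnase12, Scin, Mcpt8, Cd200r3, Cyp11a1, Cpa3, Slc45a3, Lmo4, Hdc, Lilr4b, Csf1 and St8sia6, with lowest ratios from 70.0 (Rnase12) down to 7.35 (St8sia6). Most were patchy from cell to cell. Cdh1 was seen in 33 of 120 cells and Alox5 in 60, whereas Lmo4, a LIM-domain transcription cofactor, was seen in 113 cells at 1048, 1096, 1130 and 1221 CPM and varied little between pools.

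**Figure D4:**
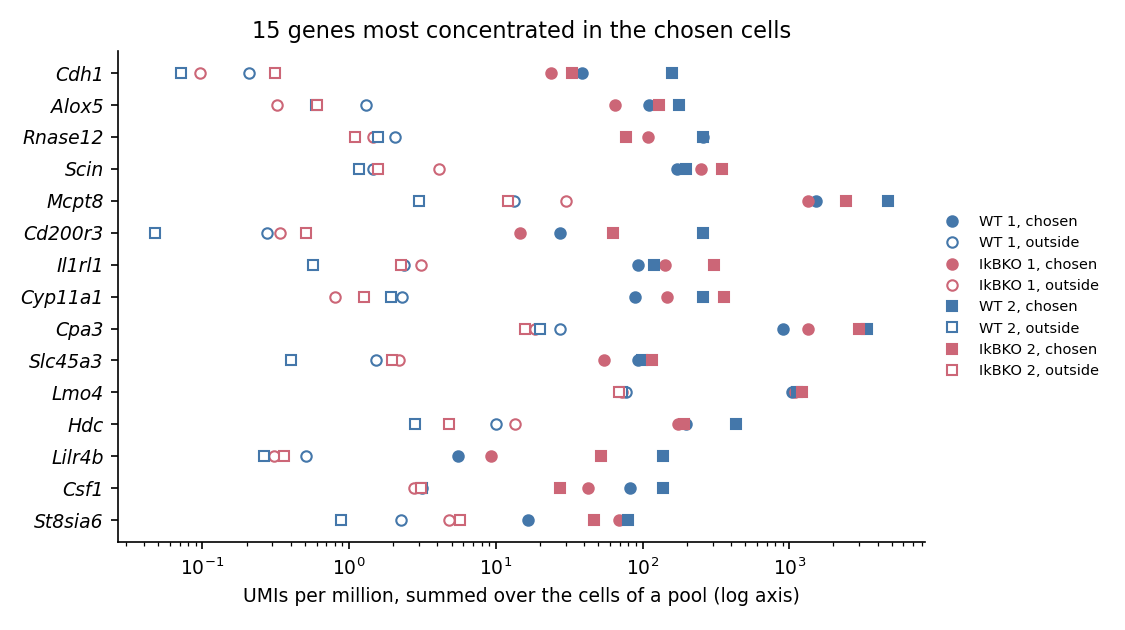
CPM (x axis, log scale) of the 15 genes outside the rule that were most concentrated in the chosen cells; filled symbols are the chosen cells and open symbols all other LSK cells of the same pool. Cdh1 lay between 23.9 and 159 CPM in the chosen cells and between 0.0712 and 0.312 CPM in the others.

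Transcription factors and cytokine receptors of the lineage were present at differing depth. Gata2 had a UMI in 115 of 120 cells, at 458, 541, 575 and 679 CPM against 57.2 to 80.9 CPM outside. Gata1, a factor of erythroid, megakaryocyte, mast and eosinophil cells, had 22.1, 65.0, 19.8 and 49.5 CPM against 3.16 to 16.3 CPM. Cebpa had 132, 83.6, 178 and 66.0 CPM against 13.9 to 42.6 CPM, and both WT pools lay above both IkBKO pools. Csf2rb, the shared β chain of the interleukin-3, interleukin-5 and GM-CSF receptors, had 71.7, 168, 377 and 148 CPM against 15.5 to 54.2 CPM. Kit was detected in 77.5% of the chosen and 78.1% of the other cells. Of 12 granulocyte genes, 3 or more had a UMI in 59.2% of chosen and 49.2% of other LSK cells, but in the IkBKO pools the order was opposite, at 65.1% against 70.3% and 37.8% against 43.6%. Their summed level was 4911, 3601, 2993 and 3184 CPM in the chosen cells and 4594, 9025, 2100 and 2554 CPM in the others, so that the chosen cells were lower in IkBKO of replicate 1 and higher in the other pools. The matching shares for genes of monocytes and dendritic cells were 8.33% and 25.5%, of erythroid cells 15.8% and 7.16%, of megakaryocytes 15% and 14.7%, of lymphoid cells 1.67% and 10.0% and of stem cells 52.5% and 84.1%. These shares pool the genotypes, and IkBKO made up 100 of 120 chosen and 9245 of 17909 other cells. The erythroid share was 0% against 1.57% in WT of replicate 2. Summed erythroid levels were lower in the chosen cells of every pool (408, 342, 515 and 602 CPM against 567, 453, 726 and 785 CPM). No doublet caller was run, and the part of mixed droplets in these counts was not tested. Eosinophil genes rested on single cells: Prg2 reached 265, 399 and 544 UMIs in 3 cells, and Epx reached 69 and 114 UMIs in 1 cell of each IkBKO pool and 0 in both WT pools.

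Surface antibodies, which the rule did not use, were measured in replicate 1. Median tag counts of chosen cells in WT and IkBKO were 103.5 and 123 for Flt3, 475.5 and 463 for CD48, and 86.5 and 117 for CD150. In other LSK cells the WT and IkBKO medians were 126 and 121, 475 and 570, and 111 and 109. The 14 WT cells had the lowest Flt3 and CD150 medians, and the counts carry unbound antibody that was not measured separately. Assignment to a genotype was less clear-cut in WT. The tag of a cell's own genotype made up a median of 63.0% and 63.3% of the hashing counts in chosen WT cells and 90.6% and 91.7% in chosen IkBKO cells, against 67.6%, 70.8%, 91.7% and 92.9% in the other cells. Its part in the results was not tested. Of 77 barcodes shared by the 2 libraries none was a chosen cell.

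To ask which genes differed between genotypes inside the chosen cells, UMIs were summed per pool (181226, 753915, 50446 and 363731 in all) and tested with edgeR's quasi-likelihood test with the library as a block and Benjamini-Hochberg adjustment over 4128 genes. In bulk sums, fewer cells of a kind and less RNA per cell cannot be told apart. The test called 7 genes (0.17% of those tested), 5 higher (0.121%) and 2 lower (0.0484%) in IkBKO, and 326 genes had an unadjusted p under 0.05 (7.9%; 3.54% higher and 4.36% lower). Without the block it called 4 genes, and without each pool in turn between 10 and 36. Of the 7 genes, Prss34 and Gzmb belong to the rule and are given above as values only, Epx came from single cells, and 1 is an unnamed gene model. The remaining 3 were H2-Q7, Hist1h2ap and AA465934.

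H2-Q7, a nonclassical major histocompatibility complex class I gene, stood at 121, 622, 19.8 and 550 CPM in the chosen cells and at 212, 369, 251 and 448 CPM outside. IkBKO lay above WT in both libraries in both cell sets. The log2 difference in chosen cells was 2.68 ± 0.37 (SE, edgeR adjusted p = 0.0260). Here and below the SE is the size of the log2 difference divided by the square root of the test's F statistic. It restates the test and is not a separate estimate of spread. The counts were 22 against 469 UMIs (CPM ratio 5.12, 3.34 to 8.26) and 1 against 200 UMIs (27.7, 4.92 to 1101). AA465934, a processed transcript at chr11:83291699-83294632, had 1 UMI in each WT pool and 159 and 45 UMIs in the IkBKO pools. That is 5.52, 211, 19.8 and 124 CPM, a log2 difference of 4.34 ± 0.66 (edgeR adjusted p = 0.0458). By counting error alone the CPM ratios were loosely bounded, at 38.2 (6.76 to 1519) in replicate 1 and 6.24 (1.06 to 252) in replicate 2. Outside the chosen cells it rose as well, from 5.24 to 182 CPM and from 4.54 to 116 CPM (5.0 ± 0.15, edgeR adjusted p = 5.2e-04). Hist1h2ap, a histone H2A gene, stood at 1253, 3010, 436 and 814 CPM (1.11 ± 0.15, edgeR adjusted p = 0.0260), with IkBKO above WT in both libraries. In the WT pools 1 cell held 53.7% of its 227 UMIs in replicate 1 and 50% of its 22 UMIs in replicate 2. The call of Hist1h2ap was kept under 6 of 17 alternatives. Without IkBKO replicate 1 the fit has no block, compares across libraries and gave −0.22. H2-Q7 and Hist1h2ap have near-identical copies in the genome, so reads may have been split between them and the values are uncertain.

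Genes of the lineage outside the rule did not pass the test. Mcpt8 had a log2 difference of −0.59 ± 0.16 (edgeR adjusted p = 0.365), Il1rl1 0.85 ± 0.35 (0.588) and Cebpa −0.95 ± 0.37 (0.585). Flt3, a receptor of early and lymphoid-primed progenitors, came nearest, at 55.2, 11.9, 99.1 and 5.5 CPM (−2.71 ± 0.46, edgeR adjusted p = 0.0788). Both IkBKO pools of Flt3 lay below both WT pools, but these levels were 10, 9, 5 and 2 UMIs in 4, 5, 2 and 2 cells. Outside the chosen cells Flt3 was lower in IkBKO as well (−0.995 ± 0.079, edgeR adjusted p = 0.0028). The test of the difference between the 2 cell sets, described below, did not call it (edgeR adjusted p = 0.416). By list, 14 mast granule genes, 10 basophil genes, 16 genes of IgE receptor signalling, 17 lineage transcription factors and 9 cytokine receptors were tested. Apart from Gzmb and Prss34, whose calls are not read as results because the rule used them, none of these genes was called by edgeR. Their median log2 differences were 0.02, −0.46, −0.26, 0.15 and −0.10, against 0.02 over all genes tested. An unadjusted p under 0.05 was reached by 3, 5, 2, 5 and 4 genes of the lists, against 7.9% of all genes, and the first 3 of these counts each include a gene of the rule (Gzmb, Prss34 and Fcer1a). With 6 cells in WT of replicate 2, the test had little reach: in simulated counts of the same pools it called 5.36% of genes changed 2-fold, 58% of those changed 4-fold and 97.9% of those changed 8-fold. It also called 0.197% of unchanged genes there (6 of 3048). Calls on the changed genes loosen the adjusted threshold there, so this share cannot be set against the 0.17% called in the real pools. The simulation gave every gene the same dispersion and did not model single cells that hold much of a gene's UMIs. Its shares may therefore not hold for the real pools.

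Genes of NF-κB and interferon signalling, the cell cycle and early activation were read in the same way. Of 4 tested IκB and NF-κB family genes, 11 NF-κB response genes, 7 interferon-stimulated genes and 6 genes of the MHC class II pathway, 0 were called by edgeR, with medians of −0.40, 0.01, 0.47 and 0.62 and with 1, 3, 3 and 0 genes at an unadjusted p under 0.05. DESeq2 called 3 genes in the whole table. All 12 tested G2/M genes and 14 of 15 S phase genes had positive differences with medians of 1.05 and 0.65 and none was called. Outside the chosen cells those medians were 0.41 and 0.26. In the chosen WT cells 1 cell held 49.7% of the UMIs of the 20 listed G2/M genes in replicate 1 and 64.7% in replicate 2. Of these genes, 3 or more had a UMI in 42.9% of WT and 44.4% of IkBKO chosen cells in replicate 1. In replicate 2 the shares were 16.7% and 37.8%. Immediate-early genes of the AP-1 group had a median of −1.05 over 11 tested genes, 9 of them negative and 0 called, against −1.10 outside. Jun stood at 326, 178, 555 and 228 CPM (−1.07 ± 0.24, edgeR adjusted p = 0.212). An unadjusted p under 0.05 was reached by 4 of the 12 G2/M genes, 5 of the 15 S phase genes and 7 of the 11 AP-1 genes, against 7.9% of all genes.

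The genotype difference was then compared with that in the remaining 17909 LSK cells. There edgeR's test called 1881 of 14732 genes (12.8%) with the block (6.77% higher and 6.0% lower in IkBKO) and 0 without it, with 1389 at an unadjusted p under 0.05. The test of the difference between the differences called 14 of 4128 genes (0.339%), 4 higher (0.0969%) and 10 lower (0.242%) in the chosen cells. The 10 lower genes were Id1, Ctsg, Mpo, Ms4a3, Clec12a, Tyrobp, Tmed3, Ap3s1, Plac8 and Tmsb4x. Without the block the test called 0 genes (194 at an unadjusted p under 0.05), and without WT replicate 1 it called 2. Without IkBKO replicate 1, WT replicate 2 or IkBKO replicate 2 it called 0. Leaving out a pool also removed the block.

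Mpo gave the smallest p. In the chosen cells it stood at 2031, 1600, 1070 and 1080 CPM, with little separation of the genotypes. In the other cells it rose from 887 to 2980 CPM and from 192 to 696 CPM, a log2 difference of 1.90 ± 0.06 (edgeR adjusted p = 4.6e-04). The difference between the sets was −2.07 ± 0.14 (edgeR adjusted p = 1.2e-05), and it was negative under all 12 alternatives, from −0.93 to −2.85, and past the threshold under 7 of them. The level within the chosen cells was not stable: the Mpo difference was −0.68 in Cpa3-leaning cells alone (edgeR adjusted p = 0.0291) and 1.06 in Mcpt8-leaning cells alone (0.00709). The Mcpt8-leaning pools held only 4, 5, 1 and 7 cells. The sign of the Mpo difference reversed under 6 of 16 alternatives. Ctsg (cathepsin G) stood at 1479, 993, 1427 and 1111 CPM against 528, 1539, 92.2 and 459 CPM outside, a difference between sets of −2.45 ± 0.29 (edgeR adjusted p = 0.0293). Ms4a3, a granulocyte-monocyte progenitor gene that neighbours Ms4a2 on chromosome 19, stood at 326, 252, 198 and 181 CPM against 74.7, 281, 17.2 and 46.2 CPM (−2.03 ± 0.28, edgeR adjusted p = 0.0145). For both genes the chosen WT cells lay above the other WT cells of their library, and outside the rule IkBKO lay above WT in both libraries. In WT of replicate 2, however, the chosen-cell level of Ms4a3 came from 10 UMIs in 1 cell. Ctsg and Mpo were each seen in 3 cells of that pool, with 51.4% and 50% of their UMIs in 1 cell. Of 12 alternatives, the call of Ctsg was kept under 3 and that of Ms4a3 under 5.

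Id1, an inhibitor of helix-loop-helix factors, stood at 49.7, 14.6, 198 and 19.2 CPM in chosen cells and 3.68, 14, 1.71 and 5.53 CPM outside (−4.35 ± 0.76, edgeR adjusted p = 0.0379). The chosen WT levels rested on 9 UMIs in 4 cells and 10 UMIs in 2 cells, with 80% of the latter in 1 cell. Clec12a, an inhibitory myeloid lectin, stood at 132, 63.7, 159 and 96.2 CPM and 70.1, 121, 39.0 and 64.7 CPM outside (−1.74 ± 0.32, edgeR adjusted p = 0.0404). Both WT pools of chosen cells were above both IkBKO pools for these 2 genes. Among the higher genes, Malat1, a nuclear noncoding RNA, held its level in chosen cells (8266, 8390, 10348 and 11228 CPM) and was lower in IkBKO outside (6983, 4236, 9949 and 6552 CPM). Its difference was 0.71 ± 0.08 (edgeR adjusted p = 0.00181). H2-Q7 (1.79 ± 0.32, edgeR adjusted p = 0.0402) and Hist1h2ap (0.74 ± 0.12, edgeR adjusted p = 0.0323) were the others, beside Gzmb of the rule. The call was kept under 4 of 10 alternatives for Id1, 2 of 12 for Clec12a and 5 of 13 for Malat1. For H2-Q7 it was kept under 3 of 13 and for Hist1h2ap under 2 of 13. The makeup of both cell sets differed between genotypes. Prss34 was in 14 of 20 WT and 15 of 100 IkBKO chosen cells. Cells with UMIs of Elane, Mpo and Prtn3 were 513 of 3707 WT and 1391 of 3899 IkBKO other cells in replicate 1. In replicate 2 they were 84 of 4957 WT and 347 of 5346 IkBKO other cells. The part of makeup in these gene differences was not tested.

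**Figure D5:**
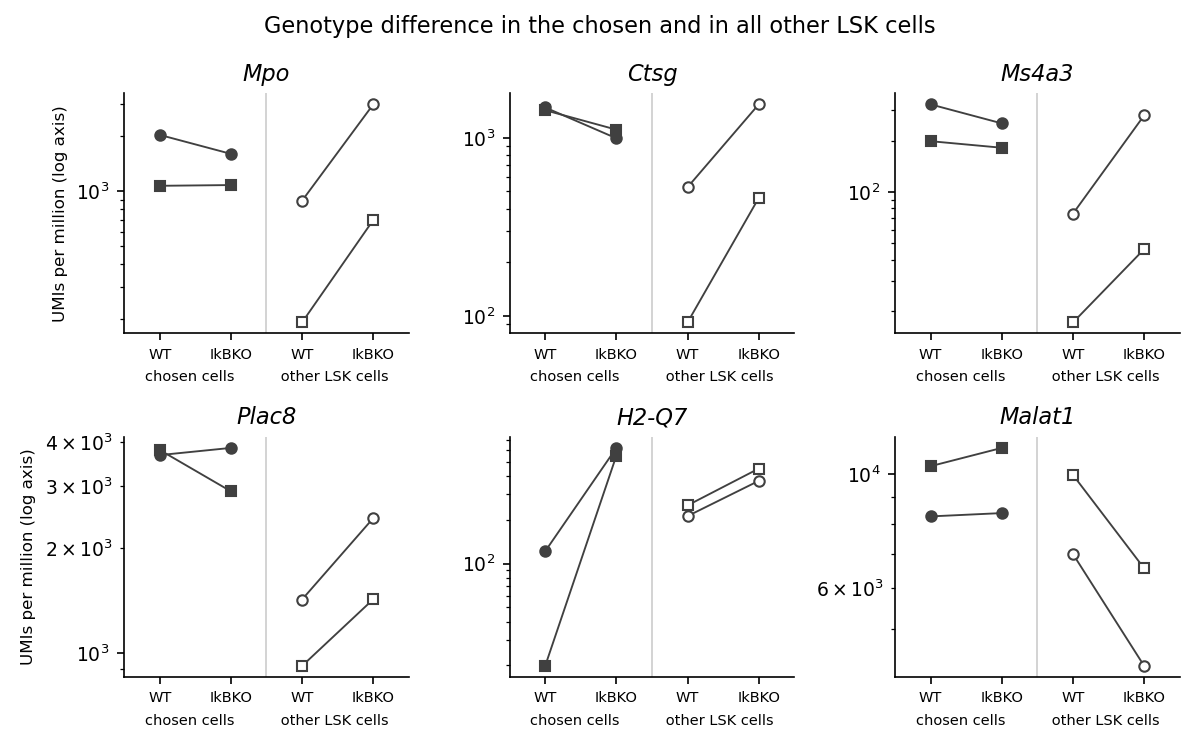
CPM (y axis, log scale) in the chosen cells and in all other LSK cells of the same pools, for 6 genes whose genotype difference was called as unequal between the cell sets; circles are replicate 1, squares replicate 2, and lines join the genotypes of a library. Among chosen cells Mpo lay at 2031 and 1070 CPM (WT) and 1600 and 1080 CPM (IkBKO), and among the others at 887 and 192 CPM (WT) and 2980 and 696 CPM (IkBKO).

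The same test was run against 2 other sets of progenitors, whose similarity to the chosen cells was not measured. Against 2335 Elane-positive cells (cells with UMIs of Elane, Mpo and Prtn3) it called 23 of 4128 genes (0.557%), 20 higher (0.484%) and 3 lower (0.0727%). The 3 lower were Id1 (−3.66 ± 0.60, edgeR adjusted p = 0.0026), Ctsg (−0.97 ± 0.16, adjusted p = 0.0029) and Mpo (−0.91 ± 0.16). Mpo helped to define those cells, and the higher genes included Gzmb and Ms4a2 of the rule and Epx, which came from single cells. The calls of Mpo, Gzmb, Ms4a2 and Epx there are not read as results. These sets lie within the other LSK cells and share the chosen cells with the comparison above, so the calls are not independent of it. Against 749 erythroid and megakaryocyte-primed cells it called 3 genes (0.0727%; 0.0242% higher and 0.0484% lower). Ctsg (−3.17 ± 0.32, edgeR adjusted p = 1.1e-05) and Mpo (−1.98 ± 0.26, adjusted p = 2.5e-04) were lower and Hist1h2ap (1.27 ± 0.16, adjusted p = 1.9e-04) higher in the chosen cells.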

How the data were processed

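Single-cell RNA and antibody-tag libraries (10x 3' v3.1 chemistry, per the labels' protocols) of LSK cells were deposited as UMI counts per gene and barcode, with a cell table giving genotype and a quality flag. Cell Ranger 6.0.0 is named per the file headers, and Cell Ranger 7.0, Seurat 4.3.0 and mm10 per the submitters' processing notes. The sources used here do not tie either version to the counts or say how the quality flag was set.

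Only barcodes with the flag TRUE were used (7683 of 9322 and 10346 of 24787), with no further filter and no doublet caller. The members and gene lists were chosen with earlier results of these data known. The deposited counts were summed per pool and tested with edgeR 4.0.16 in R 4.3.3: quasi-likelihood F test, TMM scaling, filterByExpr, the library as a block, Benjamini-Hochberg adjustment, threshold 0.05. Same-numbered pools were 1 droplet library. Their deviations from the genotype means correlated at 0.131 over 4128 genes. Differences between cell sets used the interaction term over 8 pools. Simulated counts with known changes were used to test the fit (3201 genes tested). Alternatives were DESeq2 1.42.0, its size factors in edgeR, no filter, no block, each pool left out, other rule limits, thinning and cell exclusions. Those without Fcer1a, by proteases, without cells with Epx or Prg2, without the largest cells and by Cpa3 or Mcpt8 side, and all those of the interaction and of the other LSK cells, were added after seeing the data. Intervals on shares are exact binomial (scipy 1.17.1, Python 3.11.15), and ratios of shares come from exact intervals on the split of cells between genotypes. They cover counting error only.

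Genes named were those of the rule, lineage genes of at least 50 CPM in a pool, up to 4 members with the smallest p of each other list, called genes with at least 10 CPM in 1 genotype, the first 15 markers, and the 5 highest and 5 lowest called differences. Coordinates are GENCODE M21 (GRCm38), in which 32158 of 32285 gene IDs matched (99.6%), and promoters are RefSeq (GRCm38.p6). One gene is not reported here.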

Additional observations from a re-analysis of the deposited data

Results flagged for a closer look

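The genotype difference of 8 named genes was called as unequal between the mast and basophil progenitors and all other LSK cells by edgeR's interaction test. On the log2 scale, chosen minus other cells, it was −4.35 for Id1, −2.45 for Ctsg, −2.07 for Mpo, −2.03 for Ms4a3 and −1.74 for Clec12a. The Id1 levels of the chosen WT cells came from 9 and 10 UMIs, with 80% of the latter in 1 cell. The Ms4a3 level of chosen WT cells in replicate 2 came from 10 UMIs in 1 cell. The difference was 1.79 for H2-Q7, 0.71 for Malat1 and 0.74 for Hist1h2ap. Most of these calls were lost under many of the alternatives. The call of Mpo was kept under 7 of 12, Ms4a3 under 5 of 12, Ctsg under 3 of 12 and Clec12a under 2 of 12. That of Id1 was kept under 4 of 10, Malat1 under 5 of 13, H2-Q7 under 3 of 13 and Hist1h2ap under 2 of 13. In WT the chosen cells of replicate 2 numbered 6. The part of the makeup of either cell set in these differences was not tested.

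Barcodes that failed the deposited quality flag were used in no comparison, but some of them met the rule. In replicate 1 there were 31 among 1639 failed barcodes (1.89%), and in replicate 2 there were 56 among 14441 (0.388%). The share among passing cells was 1.00% in replicate 1 and 0.416% in replicate 2. Failed barcodes that met the rule had a median of 17001 UMIs in replicate 1, against 8511 for all failed barcodes, and 2052.5 against 1969 in replicate 2.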

How the results depend on the processing

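The higher share of the cells in IkBKO held its direction in both libraries under all alternatives run, but in replicate 1 the ratio was 2.03 without counting Fcer1a and 1.95 with 2 or more proteases at 5 or more UMIs. The Prss34 group's ratio in replicate 1 became 1.64 with 4 or more rule genes, and the Mcpt8-leaning share of IkBKO replicate 1 became 25%.

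The number of genes called in the chosen cells was set by the processing: 4 without the replicate block, 3 with DESeq2, 16 with its size factors, 26 without a filter, 10 to 36 with a pool left out, 61 with 2 or more and 35 with 4 or more rule genes, 3 without large cells, 30 without cells with Epx or Prg2, 27 without the largest cell of each pool, 49 in Cpa3-leaning and 11 in Mcpt8-leaning cells. It was 0 after thinning to 3000 UMIs (1031 genes tested, 68 at an unadjusted p under 0.05) and 0 without cells with genes of another lineage (639 tested, 41 unadjusted). The cause of these shifts was not tested, beyond the fewer genes tested.

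Differences from other LSK cells numbered 0 without the replicate block, 0 to 2 with a pool left out, 9 with 2 or more and 23 with 4 or more rule genes, 5 without large cells, 0 without cells with genes of another lineage (53 unadjusted), 3 without Epx or Prg2 cells, 7 without the largest cells and 9 in Cpa3-leaning cells. Outside the rule the count was 0 without the replicate block, 3053 without a filter and 26 to 177 with a pool left out.

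Fits with a pool left out had no library block and compared across libraries. Direction reversed for Mcpt8 (−1.19 to 0.20 with a pool left out, the latter without WT replicate 2, 1.19 without cells with genes of another lineage, 0.35 in Cpa3-leaning cells), for Hist1h2ap (−0.22 to 2.34 with a pool left out, the former without IkBKO replicate 1, and −0.38 for its difference between sets without cells with genes of another lineage) and for Ctsg (0.018 in Mcpt8-leaning cells). Mpo ranged from −0.67 to 0.50 with a pool left out (0.084 without IkBKO replicate 2, 0.50 without WT replicate 1) and reversed to 0.081 with 2 or more and 0.26 with 4 or more rule genes, 0.0053 without the largest cells and 1.06 in Mcpt8-leaning cells. The cause was not tested. Depth limits these results: WT of replicate 2 held 6 cells and 50446 UMIs. Without cells with genes of another lineage, 1 WT cell was left in replicate 1 and 2 in replicate 2. The Mcpt8-leaning set held 4 and 1 WT cells.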
